A study of Mus musculus with 32 samples.

Results

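In the mouse light-chain locus Igκ, reads of rearranged V segments came from the B6 chromosome more often in pre-B-cell clone 4 than in clones 3, B52 and E9-3, and the segments and families behind that excess are described here. The comparison holds 4 libraries, 1 from each clone, out of 10 rearrangement libraries and 32 samples in the series, and each clone's library was kept separate. Bone marrow cells of F1 females of 8 to 12 weeks, from a cross of C57BL/6 (B6) with M. castaneous (Cast) mice, were grown on irradiated ST2 feeder cells with IL-7 to select pre-B cells, plated in limiting dilution so that each line descends from 1 cell, and then kept for 48 h without IL-7, which induces rearrangement. All 4 clones therefore came from the same cross and had the same treatment, and a clone stands for 1 cell's descendants and not for a strain. The study describes a loss of most of the Cast V region in late-passage cells of clone 3, and the labels do not give the passage of the library used here. In that library 80861 reads were Cast, of which the farthest segment, Igkv2-137, held 14.1%, against 14.4% in clone 4. It held less in clones B52 and E9-3, where all other segments together held 91.3% and 93.3% of the Cast reads. What part a loss in some cells has in the values of clone 3 was not tested. A second library of clone 4 at 48 h, made for a time course, served as a check, and there all segments other than Igkv2-137 held 98.0% of the Cast reads. The table lists only V segments, so that the labelled cell type could not be compared with marker genes.

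The Igκ locus builds a light chain by joining 1 of many V segments to a J segment in front of the constant exon Cκ. The RAG recombinase cuts at a recombination signal sequence beside each V segment, made of a heptamer, a spacer and a nonamer. A V segment in the same orientation as J and Cκ joins by deletion of the DNA between them, and a V segment in the opposite orientation joins by inversion. Segment names give the family before the dash and, after it, the place along the locus, counted from the J end, with 1 exception in the coordinates (Igkv4-60 lies nearer to J than Igkv4-59), so that Igkv3-1 lies next to the J segments and Igkv2-137 at the far end. Of the 112 segments of the table, 111 were found by name in GENCODE M21 (mm10, chromosome 6), with 98 annotated as functional and 13 as pseudogenes. J and Cκ lie on the plus strand, as do 41 of the segments, while 70 lie on the minus strand.

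The signal sequences of the segments on which the comparison turns are given 5′ to 3′ as they stand on the B6 reference (RefSeq, GRCm38.p6), with the heptamer and the nonamer in capitals. The Cast sequence was not used here. Igkv3-7 and Igkv6-15 mark the J-proximal stretch in which Cast reads were rare in clone 4, Igkv6-20 and Igkv8-30 lie further out, Igkv4-68 and Igkv4-54 stand for the largest family, Igkv5-45 and Igkv1-135 moved the other way, and Igkv19-93 and Igkv2-137 had the most reads on B6 and on Cast in clone 4.
Igkv3-7 (chr6:70608037-70608064, plus strand): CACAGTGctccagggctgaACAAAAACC
Igkv6-15 (chr6:70406441-70406468, minus strand): CACAGTActtcagcctcctACATAAACC
Igkv6-20 (chr6:70335813-70335840, minus strand): CACAGTGcttcagcctcccACATAAACA
Igkv8-30 (chr6:70117033-70117060, minus strand): CACAGTGcttcagcctcctACACAAACC
Igkv4-68 (chr6:69304806-69304833, minus strand): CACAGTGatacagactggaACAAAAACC
Igkv4-54 (chr6:69631620-69631647, minus strand): CACAGTGatacagactagaACAAAAACC
Igkv5-45 (chr6:69775722-69775749, minus strand): CACAGTGatgcagaccataGCAAAAATC
Igkv1-135 (chr6:67610509-67610536, plus strand): CACAGTGattcagacccgaACAAAAACT
Igkv19-93 (chr6:68736269-68736296, minus strand): CACAGTGatacaaatcataACAAAAACC
Igkv2-137 (chr6:67556217-67556244, plus strand): CACAGTGatacagccctgaACAAAAACC

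The closest match to a signal near the coding end was taken if it began with CAC and had at most 7 mismatches in heptamer and nonamer. By this rule 108 segments had one, directly behind the annotated end except in Igkv4-54, Igkv4-62 and Igkv4-71, where it began 2 bases before that end. The match of Igkv4-62 had 7 mismatches in its nonamer, so that it need not be a signal. The spacer had 12 bases in 107 of the 108 and 11 in Igkv4-63. The heptamer CACAGTG stood in 95 of the 108 (88.0%) and the nonamer ACAAAAACC in 38 (35.2%), each read on the strand of its segment. The sequence shown for Igkv4-68 was shared by 13 Igkv4 segments, and that shown for Igkv3-7 by 8 of the 9 Igkv3 segments, among them Igkv3-1, Igkv3-2, Igkv3-4 and Igkv3-12. The sequence shown for Igkv8-30 was shared by 7 segments, among them Igkv8-16, Igkv8-19, Igkv8-28 and Igkv6-17. Members of these groups that differ in their counts therefore have the same B6 signal, and what the Cast signals are was not examined.

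In clone 4, 71.8% of the reads assigned to an allele were B6 (46406 of 64672 reads, 95% Wilson interval 71.4 to 72.1). Clone 3 had a B6 share of 51.2% (51.0 to 51.4, 165679 reads), clone B52 of 65.8% (65.4 to 66.1, 69131 reads) and clone E9-3 of 53.7% (53.1 to 54.2, 34291 reads). Clone 4 was the highest of the 4, by 20.6 percentage points over clone 3 (95% Newcombe interval of the difference 20.1 to 21.0), by 5.96 points over clone B52 (5.47 to 6.46) and by 18.1 points over clone E9-3 (17.5 to 18.7). The mean of the other 3 clones was 56.9% (SD 7.81, n = 3), which lies 14.9 points under clone 4. In the time-course library clone 4 reached 76.7% (75.9 to 77.5, 10958 reads), also above the other 3. Since PCR amplified the cDNA and no molecular identifiers are described, all intervals cover counting error only. The 2 libraries of clone 4 differed in their segments' B6 shares by a mean chi-square of 17.7 over 73 segments, where counting error alone gives about 1, and with counts divided by that value the intervals widened to 18.8 to 22.3, 3.88 to 8.04 and 15.4 to 20.7 points. With 1 clone against 3, the smallest one-sided exact permutation p is 0.25, and no test between clones was made. A share of reads mixes the number of cells that rearranged a segment with the RNA each holds, and these cannot be told apart.

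The excess of B6 over the mean of the other clones lay in the J-proximal and the middle parts of the locus, while at the far end the difference changed sign between the clones compared. For this account, the part of a segment was defined from its B6 percent and its Cast percent of the library, in clone 4 and as the mean of the other 3, in such a way that the parts add up to the 14.9 points. Segments numbered 1 to 49 held 7.95 points, segments numbered 50 to 99 held 6.88 points, and segments numbered 100 and over held 0.037 points. Against clones 3, B52 and E9-3 in turn, segments 1 to 49 held 9.75, 3.79 and 10.3 points and segments 50 to 99 held 8.53, 4.17 and 7.94 points. The small value of the far segments is a mean over 2.28, −1.99 and −0.18 points. Among segments 1 to 49 the B6 share of reads was 80.4% in clone 4 and 56.5%, 65.4% and 55.0% in clones 3, B52 and E9-3. Among segments 50 to 99 it was 86.7% in clone 4 and 66.0%, 77.7% and 66.3% in clones 3, B52 and E9-3. In both of these stretches clone 4 was above all 3 others, with intervals that did not overlap. Among segments 100 and over the B6 share was 41.3% in clone 4, which lay between 36.7% in clone 3 and 47.8% in clone B52 and close to 42.3% in clone E9-3. The second library of clone 4 did not repeat this, since its far segments had a B6 share of 56.1% (54.3 to 58.0), above all 3 clones.

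**Figure D1:**
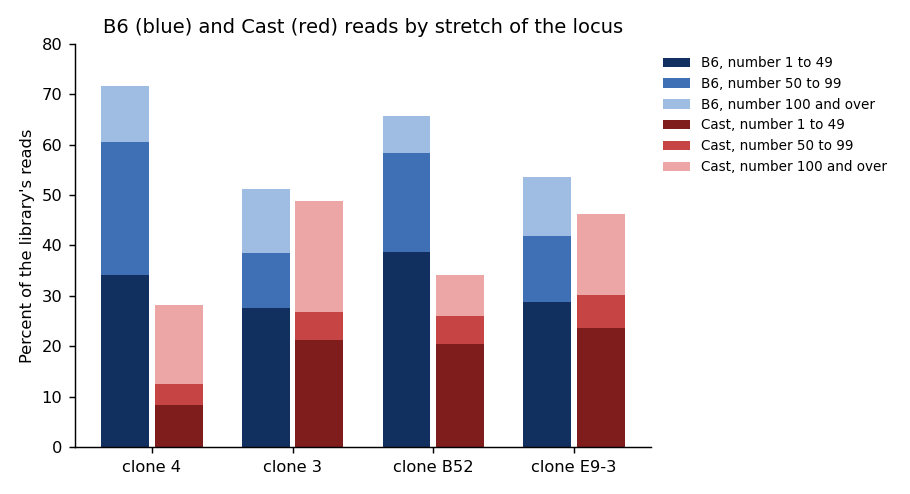
Percent of each library's reads on the B6 allele (blue bars) and on the Cast allele (red bars), stacked by stretch of the locus, for 1 library per clone. In clone 4 the B6 bar reaches 71.8%, and the 2 darker Cast blocks, segments 1 to 99, are smaller than in the other 3 clones, while the pale Cast block of segments 100 and over holds 56.1% of clone 4's Cast reads.

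The orientation of the segments divided the excess further. Segments on the minus strand, which join by inversion, held 14.0 of the points and those on the plus strand 0.91. The minus-strand part was 17.2, 11.5 and 13.2 points against clones 3, B52 and E9-3, whereas the plus-strand value is a mean over 3.42, −5.61 and 4.92 points, which cancel in part. Minus-strand segments made up 71.8% of the B6 reads in clone 4 and 49.1%, 40.5% and 52.7% in clones 3, B52 and E9-3, so that clone 4 was the highest of the 4. In the second library of clone 4 they made up 73.3% of the B6 reads, and in clone 8 71.4%, with an interval (71.1 to 71.8) that overlapped that of clone 4. On Cast they made up 42.8% in clone 4 and 41.1%, 30.2% and 33.2% in clones 3, B52 and E9-3, with 50.5% in clone 8. The second library of clone 4 was higher on Cast than the first, at 52.2% (50.2 to 54.1). Orientation, place along the locus and family go together, and their parts in this difference were not tested.

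Most of the difference to each clone was found within segments, that is, the same segments had higher B6 shares in clone 4, and less of it came from a shift of reads towards segments that are read on B6 in both clones. The part within segments was 15.6 points against clone 3, 12.4 points against clone B52 and 15.2 points against clone E9-3. The part from the use of segments was 4.96 points against clone 3, −6.46 points against clone B52 and 2.85 points against clone E9-3. These are means over the weights of both libraries, and the split depended on them. Against clone B52 the part within segments ran from 7.13 points with the weights of clone 4 to 17.7 with those of clone B52, and the part from use from −1.17 to −11.7, so that it went against the B6 excess with either. Against clone E9-3 the part from use was 6.97 points with the weights of clone 4 and −1.27 with those of clone E9-3, so that its direction depended on the weights. Of the 106 segments with reads in any of the 4 libraries, 75 added to the B6 excess and 31 took from it. The segments that added summed to 20.5 points and those that took to −5.63 points. The 10 largest additions came to 9.40 points, and 24 segments were needed to reach the whole difference, so that no single segment carried it.

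The B6 shares of single segments were correlated between clone 4 and the others, at a higher level in clone 4. Over the 93 segments with 10 or more reads in all 4 libraries, Pearson's r between clone 4 and clone 3, B52 and E9-3 was 0.751, 0.764 and 0.641, given as a description across segments, which share libraries and depth. Clone 4 had the highest B6 share of the 4 clones in 42 of the 93 segments, and clone B52 in 18, clone E9-3 in 11 and clone 3 in 3. Clone 4 had the lowest in 11 segments and clone 3 in 41. The second library of clone 4 was the highest in 39 of the 82 segments that it covered with 10 or more reads. The median B6 share over segments was 80.3% in clone 4 and 57.3%, 69.2% and 63.7% in clones 3, B52 and E9-3.

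A difference of 20 points or more in a segment's B6 share, with 10 or more reads in both libraries, was used as a fixed rule of size. Against clone 3, 40 of 101 segments were higher in clone 4 (39.6%) and 3 were lower (2.97%). Against clone B52, 19 of 95 were higher (20%) and 8 lower (8.42%), and against clone E9-3, 28 of 95 were higher (29.5%) and 6 lower (6.32%). Setting both alleles of each library to equal totals first, which removes the overall B6 excess, left 17 higher and 11 lower against clone 3, 14 higher and 12 lower against clone B52, and 15 higher and 15 lower against clone E9-3. Relative to all 3 clones at once, 15 of 93 segments were higher in clone 4 (16.1%) and 2 were lower (2.15%), and with equal allele totals 9 were higher and 6 lower. The same rule applied to each of the other clones against the remaining 3 gave 0 higher (0%) and 6 lower segments (6.45%) for clone 3, 1 higher (1.08%) and 1 lower (1.08%) for clone B52, and 3 higher (3.23%) and 3 lower (3.23%) for clone E9-3. The count for clone 4 rose from 15 to 25 when clone B52, the clone with the next highest B6 share, was left out.

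Next to the J segments, clone 4 had almost no Cast reads. Over the 12 segments from Igkv3-1 to Igkv6-15, a stretch drawn after the counts were seen, 38 of the 18266 Cast reads of clone 4 were found, or 0.208% (0.152 to 0.285). In clones 3, B52 and E9-3 the same stretch held 13.0%, 45.4% and 30.7% of the Cast reads, which is 62.3, 218 and 148 times the percent in clone 4. On B6 it held 10.9% of the reads in clone 4 and 21.6%, 44.7% and 22.5% in clones 3, B52 and E9-3, so that the stretch was used less in clone 4 on both chromosomes and far less on Cast. Its B6 share was 99.3% in clone 4 and 63.7%, 65.5% and 45.9% in clones 3, B52 and E9-3. The second library of clone 4 had 2 Cast reads there of 2550, or 0.0784% (0.0215 to 0.286), and clone 8 had 82, or 0.186% of its Cast reads, so that clone 4 was not the only clone of the series with few. Because clone 4 used the stretch so little, the stretch held only 1.12 of the 14.9 points, as 1.49 points against clone 3, −3.08 against clone B52 and 4.95 against clone E9-3. The split within segments and from use, with mean weights, is another measure and does not add up to these points. By that split the stretch held 4.10, 8.35 and 8.38 points within segments against clones 3, B52 and E9-3. From use it held −7.39, −30.0 and −12.6 points. Without the stretch clone 4 was still the highest, by 20.8, 3.35 and 13.0 points.

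With this library of clone 4, Igkv3-7 had the largest mean part in the excess, 1.34 points, which came from clone E9-3 alone. Its part was −0.44 points against clone 3, −0.0051 against clone B52 and 4.45 against clone E9-3, and without clone E9-3 its mean turned to −0.22 and Igkv6-15 added most, with 1.29. Clone 4 had 769 B6 and 2 Cast reads of Igkv3-7, a B6 share of 99.7% (99.1 to 99.9). Clone 3 had 5242 B6 and 1833 Cast reads (74.1%), clone B52 had 7367 and 6540 (53.0%), and clone E9-3 had 827 and 3474 (19.2%). Igkv3-7 was thus the most read segment of clone B52, at 20.1% of the library, and made up 1.19% in clone 4. The second library of clone 4 had only 10 reads of Igkv3-7, all on B6, and the part of the segment is smaller with that library. Leaving out Igkv3-7 lowered the difference to clone B52 from 5.96 to 2.40 points and that to clone E9-3 from 18.1 to 12.8, and raised that to clone 3 from 20.6 to 21.2. Its closest relative, Igkv3-12, is 96.7% identical in transcript sequence, so that reads could have been split between them, and it had 500 B6 and 8 Cast reads in clone 4 (98.4%). Clone 3 had 4629 B6 and 4888 Cast reads of Igkv3-12 (48.6%), clone B52 had 5061 and 3041 (62.5%), and clone E9-3 had 355 and 713 (33.2%). Both segments were therefore read on both chromosomes in the other clones and nearly only on B6 in clone 4.

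Igkv3-1, the segment nearest to J, was on the majority allele opposite to that of the other clones, with 73 B6 and 19 Cast reads in clone 4 (79.3%, 70.0 to 86.4). Its B6 share was 17.6%, 46.7% and 37.1% in clones 3, B52 and E9-3, and the upper bounds of these intervals stayed below 50%. It held 19 of the 38 Cast reads of clone 4 in the stretch. Igkv3-4 had 513 B6 and 3 Cast reads in clone 4, while Cast reads numbered 1183, 371 and 302 in clones 3, B52 and E9-3. Igkv3-2 was B6 in all 4 clones, with B6 shares from 98.4% in clone 3 to 100% in clone 4. Because clone 4 used it less, at 1.66% of B6 reads against 3.32%, 9.73% and 8.52% in clones 3, B52 and E9-3, Igkv3-2 took most from the mean excess, with −1.51 points. Its part was −0.24, −2.60 and −1.69 points against clones 3, B52 and E9-3, and without clone B52 it fell to −0.96, so that Igkv1-135 took most. Of the 12 segments of the stretch, 5 had no Cast read in any of the 4 libraries, among them Igkv3-3, Igkv3-10 and Igkv6-13, and 7 were read on Cast in at least 1 of them. Of the 5, 1 (Igkv3-9) had no B6 read either.

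Igkv6-15, at the outer end of the stretch, combined few Cast reads with a high use on B6 in this library of clone 4. It was 1 of the 3 most read B6 segments of clone 4, with 2102 B6 and 6 Cast reads (99.7%, 99.4 to 99.9), and added 1.33 points. Clone 3 had 2519 B6 and 1159 Cast reads (68.5%), clone B52 had 490 and 144 (77.3%), and clone E9-3 had 287 and 149 (65.8%). On B6 it made up 4.53% of the reads in clone 4 and 2.97%, 1.08% and 1.56% in clones 3, B52 and E9-3. In clone 8 its use on B6 was also above that of clones 3, B52 and E9-3. In the second library of clone 4 it had 132 of the 8408 B6 reads and no Cast read. That is a smaller percent of B6 reads than in clone 3, so that the high use was not repeated there. Its part in the excess is therefore smaller with that library. The next segment outwards, Igkv8-16, was read on Cast again, with 3 B6 and 55 Cast reads in clone 4. Clone 3 had 41 and 563, clone B52 had 0 and 158, and clone E9-3 had 0 and 85. Igkv8-16 was thus a Cast segment in all 4 clones. Igkv6-17, with the same B6 signal sequence, was a B6 segment in all 4, with 1413 B6 and 2 Cast reads in clone 4 and at most 1 Cast read in the others.

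**Figure D2:**
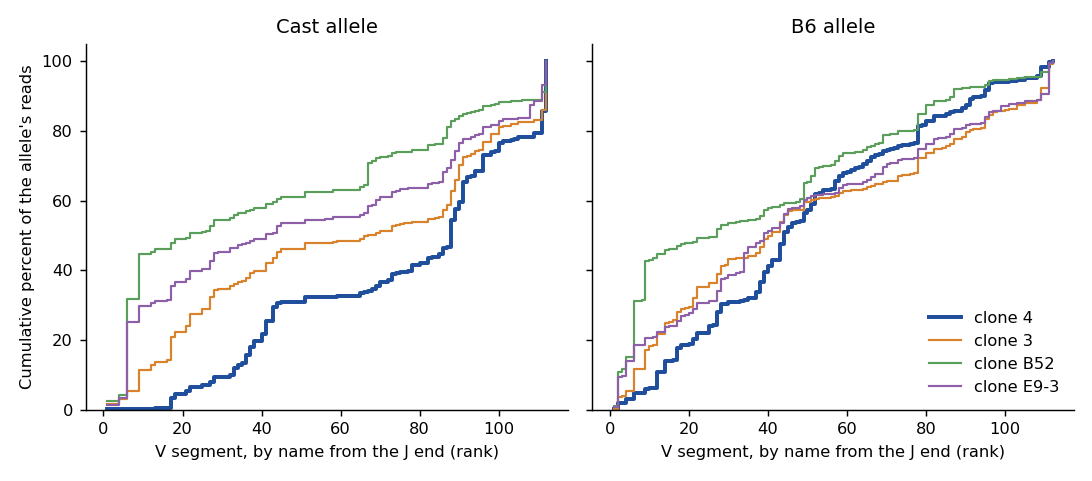
Cumulative percent of the Cast reads (left) and of the B6 reads (right) of each library, over the 112 segments in the order of their names from the J end (x axis, rank), with 1 line per clone. The clone 4 line stays near 0 on Cast over the first 12 segments, where it reaches 0.208%, while the line of clone B52 reaches 45.4%, and on B6 the clone 4 line reaches 10.9% over the same segments.

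Beyond the J-proximal stretch, the Igkv6 and Igkv8 families, which lie interspersed on the minus strand with few exceptions, had a high B6 share in clone 4. For the 6 Igkv6 segments beyond it the B6 share was 82.5% in clone 4 and 49.7%, 63.0% and 52.6% in clones 3, B52 and E9-3, with 2.68 points, and with the 3 inside it the family held 3.91 points. For the Igkv8 family it was 87.4% in clone 4 and 53.1%, 68.7% and 61.2% in clones 3, B52 and E9-3, with 2.27 points. In the second library of clone 4 the shares were 90.3% for these Igkv6 segments and 90.4% for Igkv8. In both groups of segments clone 4 was above the 3 others in each of its libraries, and clone 8 was higher still than the first of them, with 91.2% and 89.6%.

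Igkv6-20 was a Cast segment in clones 3 and E9-3 and a B6 segment in clone 4. Clone 4 had 1524 B6 and 526 Cast reads of it (74.3%, 72.4 to 76.2), clone 3 had 1952 and 5342 (26.8%), clone B52 had 426 and 414 (50.7%), and clone E9-3 had 244 and 637 (27.7%). In clone 4's second library its B6 share was 88.8%. Igkv6-20 is 98.7% identical to Igkv6-29, and its reads could have been shared with that segment. Igkv8-30 had 1756 B6 and 129 Cast reads in clone 4 (93.2%). Clone 3 had 2127 and 2799 (43.2%), clone B52 had 1041 and 340 (75.4%), and clone E9-3 had 529 and 378 (58.3%). The time-course library of clone 4 held 258 B6 reads of it and no Cast read. On Cast it made up 0.706% of the reads in clone 4 and 3.46%, 1.44% and 2.38% in the others. The pair Igkv8-28 and Igkv8-19, which are 97.6% identical, had B6 shares of 89.9% and 96.1% in clone 4, above the highest of the other clones, 64.0% for Igkv8-28 in clone E9-3 and 60.2% for Igkv8-19 in clone B52. The parts of Igkv6-20, Igkv8-30 and Igkv8-28 in the excess were 1.30, 1.08 and 0.64 points.

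The Igkv4 family, the largest with 30 segments, held 6.25 of the 14.9 points, more than any other family with this library of clone 4. Its B6 share was 90.7% in clone 4 (90.2 to 91.2) and 61.3%, 75.6% and 65.5% in clones 3, B52 and E9-3. Of its 30 segments, 27 added to the excess and 3 took from it, where 75 of the 106 segments of the table with reads added. Of the 26 with enough reads, 7 were at least 20 points above all 3 clones, where 15 of 93 (16.1%) were among all segments. The family made up 27.5% of the B6 reads of clone 4, against 12.2%, 20.7% and 16.6% in clones 3, B52 and E9-3, whereas its 7.17% of the Cast reads was below 8.09%, 12.9% and 10.1% in those clones. In the second library of clone 4 its B6 share was 81.8%, still the highest, but it made up 18.6% of B6 reads, which is below clone B52, and 13.6% of Cast reads, which is above all 3. The use of the family thus differed between the 2 libraries of clone 4, while its B6 share stayed above that of the other clones. On B6 it made up 14.3% of the whole second library against 19.8% of the first, and on Cast 3.18% against 2.02%. By the same definition its part is therefore smaller with the second library, and it lies below those of Igkv5 and Igkv6 there.

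By a second rule of size, a percent of an allele's reads at least 2-fold above or below all 3 clones, with 10 or more reads in at least 1 library and counts under 3 set to 3, 16 of 99 segments were used more on B6 in clone 4 (16.2%) and 7 less (7.07%). Of the 16, 10 belonged to the Igkv4 family, and 7 of these have the signal sequence shown for Igkv4-68. Igkv4-68 had 1156 B6 reads in clone 4, or 2.49% of B6 reads, against 0.360%, 1.08% and 0.375% in clones 3, B52 and E9-3, and no Cast read in any of the 4. Igkv4-54 had 510 B6 reads in clone 4 (1.10%), while clone 3 had 70 (0.0825%), clone B52 had 0 and clone E9-3 had 22 (0.120%), with no Cast read either. These calls were mostly not repeated in the second library of clone 4, in which 1 of the 10 Igkv4 segments passed the rule and 3, with Igkv4-68 among them, had no B6 read. Igkv4-54 had 48 B6 reads there, or 0.571%. With median-of-ratios factors in place of the allele's total the split of 16 more and 7 less used turned to 7 and 11, and these calls rest on the scaling.

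The 7 segments used less on B6 in clone 4 were Igkv3-1, Igkv3-2, Igkv3-3, Igkv3-7, Igkv6-23, Igkv9-124 and Igkv16-104. The 4 Igkv3 segments among them passed the rule with the second library of clone 4 as well. Igkv3-2, which made up 3.32% of the B6 reads or more in the other clones, made up 1.66% in clone 4 and 0.999% in its second library. Igkv16-104 had 0.269% of B6 reads in clone 4 against 1.22%, 2.30% and 1.35% in clones 3, B52 and E9-3.

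On Cast, 16 of 81 segments were used more in clone 4 than in all 3 clones (19.8%) and 11 less (13.6%). All 5 segments of the Igkv5 family were among the 16, and 4 of them passed with the second library too. The family made up 10.9% of the Cast reads in clone 4 (10.5 to 11.4) and 2.93%, 2.08% and 1.08% in clones 3, B52 and E9-3, and 12.0% in the second library. Clone 8 was above clone 4, with 15.4% (15.1 to 15.8). On B6 the family was also used most in clone 4, with 10.3% against 5.86%, 2.12% and 4.42%. Its B6 share, 70.5% in clone 4, was therefore within the range of the others, between 66.2% in clone B52 and 82.6% in clone E9-3, and the family held 1.45 points of the excess. In the second library of clone 4 its B6 share was 81.5%, also within that range. The family made up 12.3% of that library on B6 and 2.79% on Cast, against 7.36% and 3.08% of the first. Its part in the excess is therefore larger with the second library. Of the 11 segments used less on Cast, Igkv3-1, Igkv3-4, Igkv3-7, Igkv3-12 and Igkv6-15 lie in the J-proximal stretch, and the others were Igkv4-53, Igkv4-69, Igkv4-73, Igkv8-19, Igkv8-30 and Igkv16-104.

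Igkv5-48 and Igkv5-43 were read more on both alleles in clone 4. Igkv5-48 made up 4.61% of B6 and 4.18% of Cast reads in clone 4, and at most 2.82% of B6 and 1.39% of Cast reads in the other clones, both in clone 3. Its B6 share, 73.7%, was between those of clones 3 (68.0%) and E9-3 (79.1%). Igkv5-45 differed from its 98.4% identical neighbour Igkv5-43 in its alleles. Clone 4 had 870 B6 and 370 Cast reads of Igkv5-45 (70.2%, 67.6 to 72.6), clone 3 had 731 and 15 (98.0%), and clones B52 and E9-3 had 177 and 83 B6 reads and no Cast read, which allows up to 0.0127% and 0.0189% of their Cast reads. It was 1 of the 2 segments with a B6 share at least 20 points below all 3 clones. In the second library of clone 4 it had 280 B6 and 31 Cast reads (90.0%), less than 20 points below the others. The assignment of Cast reads between Igkv5-45 and Igkv5-43 could not be checked from the counts.

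Igkv1-135, near the far end, was the other segment with a lower B6 share and the only 1 of the 2 that kept the difference in the second library. Clone 4 had 673 B6 and 1149 Cast reads (36.9%, 34.8 to 39.2), clone 3 had 5953 and 2152 (73.4%), clone B52 had 1141 and 520 (68.7%), and clone E9-3 had 1673 and 748 (69.1%). The second library gave 30.9% (25.3 to 37.1). The majority allele was therefore Cast in both libraries of clone 4 and B6 in the other 3 clones. Clone 8, which is not among the 4, was Cast as well, with a B6 share of 21.7%, and it also lay on the side of clone 4 at Igkv3-1 (74.7%), Igkv6-20 (82.9%) and Igkv5-45 (55.5%), so that these differences are not particular to clone 4. The part of the segment in the excess was −1.35 points, from −1.52, −0.82 and −1.72 against clones 3, B52 and E9-3, and it was the third most read Cast segment of clone 4, after Igkv2-137 with 2624 Cast reads and Igkv11-106 with 1393. Igkv2-137 was Cast in all 4 clones, with B6 shares of 3.56% in clone 4 and 5.28%, 11.7% and 5.73% in clones 3, B52 and E9-3. In the second library of clone 4 it had 52 Cast reads, or 2.04% of the Cast reads against 14.4% in the first.

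**Figure D3:**
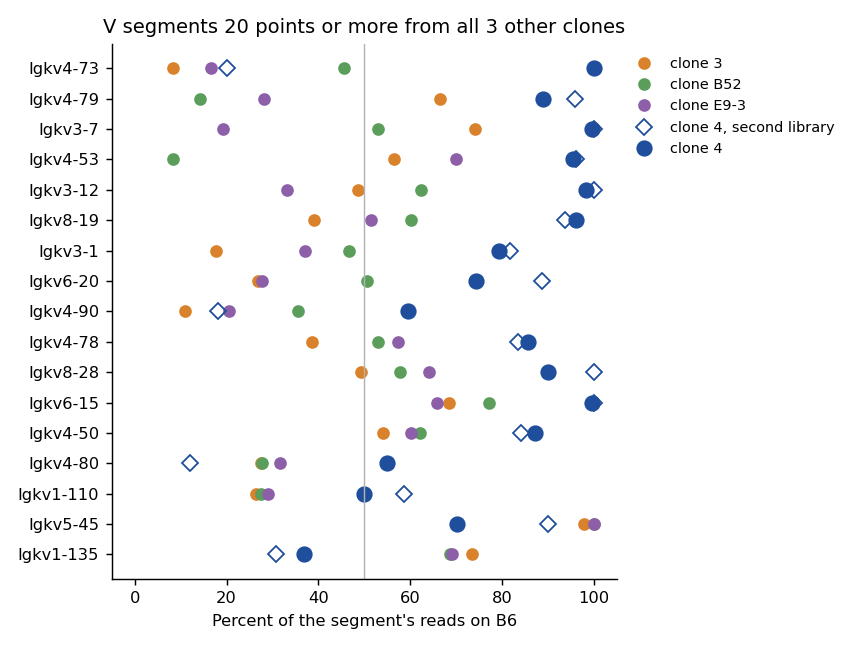
Percent of a segment's reads on B6 in clones 4, 3, B52 and E9-3 (filled circles, 1 library each) and in the second library of clone 4 (open diamonds), for the 15 segments at least 20 points above and the 2 at least 20 points below all 3 other clones. Points that coincide hide each other, as for Igkv5-45 in clones B52 and E9-3, and the open diamond lies far from the filled blue circle for Igkv4-73, Igkv4-80 and Igkv4-90.

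The 15 segments higher than in all 3 clones were spread over Igkv1, Igkv3, Igkv4, Igkv6 and Igkv8, with 7 in numbers 1 to 49, 7 in 50 to 99 and 1 at 100 and over. Clone 8, set against the same 3 clones, was higher by this rule in 14 of 93 segments (15.1%) and lower in 6 (6.45%), and both comparisons share these clones. In the 15 segments the B6 share of clone 8 ran from 51.2% to 100%, with 98.0% for Igkv3-12, 99.9% for Igkv6-15, 98.7% for Igkv8-19 and 86.6% for Igkv8-28, so that high shares there were not particular to clone 4. Among the Igkv4 members, Igkv4-53 had 729 B6 and 34 Cast reads in clone 4 (95.5%), against 56.5%, 8.33% and 70.0% in clones 3, B52 and E9-3. Igkv4-79 had 251 B6 and 31 Cast reads in clone 4 (89.0%), against 66.5% in clone 3 and, with Cast in the majority, 14.2% in clone B52 and 28.1% in clone E9-3. Both kept their difference in the second library, with 96.2% and 96.0%. Igkv4-50 and Igkv4-78 had B6 shares of 87.2% and 85.8% in clone 4 and at most 62.3% and 57.3% in the others. Igkv4-73, annotated as a pseudogene, had 212 B6 reads and no Cast read in clone 4, but 1 B6 and 4 Cast reads in the second library. Igkv4-90 with 52 reads and Igkv4-80 with 235 reads had B6 shares of 59.6% and 54.9% in clone 4 and of 18.2% and 12.1% in the second library. Of the 15 segments, 14 had 10 or more reads in the second library and 12 of those were at least 20 points above all 3 clones there too. Just inside the rule were Igkv1-110 with 20.95 and Igkv6-15 with 22.4 points over the nearest clone, and just outside were Igkv2-109 with 19.96, Igkv3-4 with 18.8 and Igkv6-25 with 18.1 points.

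By family, with those of at least 1% of reads in any of the 4 libraries described, clone 4 had the highest B6 share in 6 of 16 families, namely Igkv2, Igkv3, Igkv4, Igkv6, Igkv8 and Igkv16, and the lowest in 3, namely Igkv11, Igkv17 and Igkv19. For Igkv17 the interval of clone 4 (76.9%, 71.9 to 81.2) overlapped those of clones 3 and E9-3, and its second library was at 86.5%, above both. For Igkv16 it overlapped those of clones B52 and E9-3. Igkv3 showed the largest distance, with 98.9% in clone 4 and 61.2%, 64.8% and 44.4% in clones 3, B52 and E9-3, although it made up 4.33% of the clone 4 library against 14.4%, 43.4% and 24.8% and summed to −0.10 points. In clone 8 the families Igkv3, Igkv4, Igkv6 and Igkv8 had B6 shares of 98.7%, 85.1%, 95.1% and 89.6%, also above clones 3, B52 and E9-3. The sum for Igkv3 is a mean over 0.50, −4.31 and 3.50 points against the 3 clones, which differ in sign. Igkv2, mostly Cast in the 4 libraries, had 21.5% in clone 4 and at most 15.0% in the others, but 46.0% (41.1 to 50.9) in the second library of clone 4, and 20.3% in clone 8. Igkv1, Igkv9, Igkv10, Igkv12, Igkv14 and Igkv15 lay within the range of the other 3 clones. The second library of clone 4 did not repeat this for Igkv9 (71.3%), Igkv14 (71.6%) and Igkv15 (96.8% on 31 reads), which were above all 3 clones there. Igkv12 (76.3%, 73.5 to 78.9) was also above all 3 there and Igkv10 (69.0%, 63.8 to 73.8) below them. The intervals of both overlapped those of clone E9-3, at 74.2 to 77.6 for Igkv12 and 68.5 to 75.0 for Igkv10. In Igkv11 the B6 share was 6.10% in clone 4 and 9.39%, 11.8% and 19.0% in clones 3, B52 and E9-3. Of its 2 segments, Igkv11-106 was read only on Cast in all 4 libraries. It made up 7.63% of the Cast reads in clone 4 against 3.97%, 1.64% and 2.34%. The other segment, Igkv11-125, differed in its B6 share by −18.5 points from the mean of the other 3 clones.

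**Figure D4:**
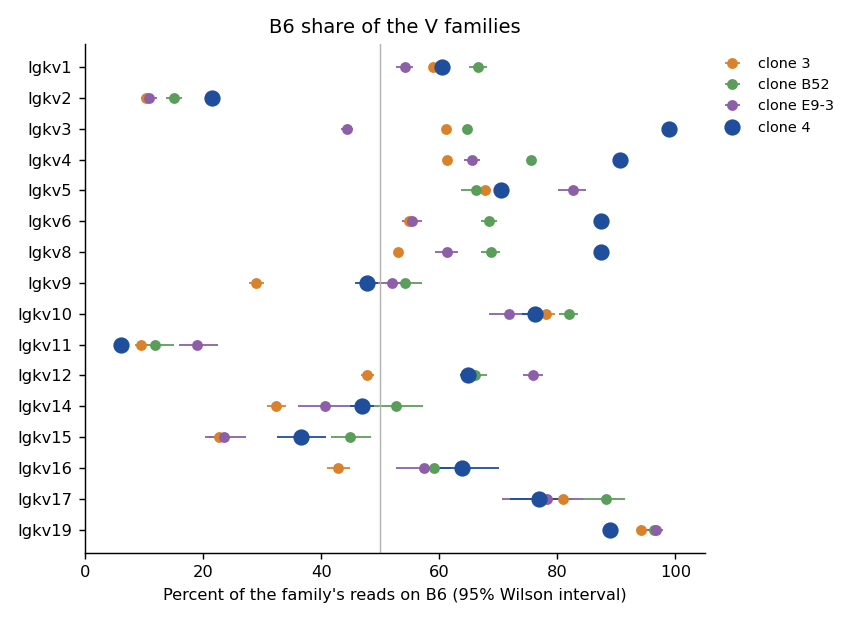
Percent of a family's reads on B6 with the 95% Wilson interval (bars) for families with at least 1% of the reads in any of the 4 libraries, 1 point per clone. Clone 4 stands apart to the right in Igkv3 (98.9%), Igkv4 (90.7%), Igkv6 (87.3%) and Igkv8 (87.4%), and lies among the others in Igkv1, Igkv9, Igkv10, Igkv12 and Igkv14.

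**Figure D5:**
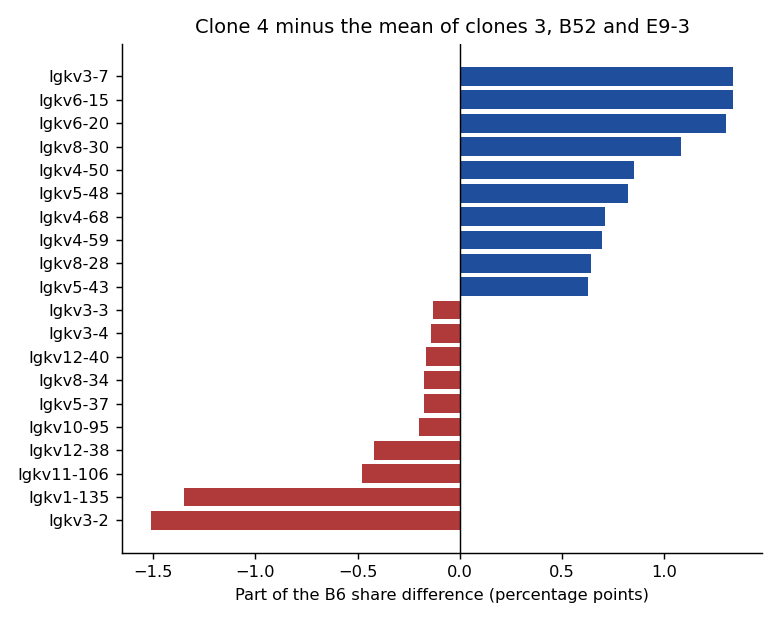
Part of each segment in the B6 share of clone 4 minus the mean of the other 3 clones (percentage points), for the 10 segments that added most (blue) and the 10 that took most (red). Of the 10 that added, 9 had parts above 0 against each of the 3 clones, the exception being Igkv3-7 (1.34), and Igkv3-2 (−1.51) and Igkv1-135 (−1.35) lie far from the others among those that took. All parts and their order are those of the first library of clone 4. In its second library Igkv4-68 had no B6 read.

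Igkv19-93 was the most read B6 segment of clone 4. It had 2384 B6 and 296 Cast reads there (89.0%, 87.7 to 90.1), against 94.1%, 96.3% and 96.8% in clones 3, B52 and E9-3. Its use on B6, 5.14%, was above 4.26%, 4.37% and 2.76% in the others, and its use on Cast, 1.62%, was 5.04-fold or more above theirs, which were 0.278%, 0.321% and 0.107%. The second library of clone 4 had higher values than the first, with 10.5% of B6 reads and 3.69% of Cast reads. Igkv19-93 made up 8.09% of the whole second library on B6 and 0.858% on Cast, against 3.69% and 0.458% of the first. Its part in the excess, 0.57 points with the first library, is therefore larger with the second. In clone 8 and in the library labelled as a pre-B pool the use of Igkv19-93 on Cast was higher, at 6.71% and 4.90%, with B6 shares of 47.8% and 49.2%, so that a raised use on Cast is not particular to clone 4. Igkv10-95 moved likewise on Cast, with 121 Cast reads in clone 4 (0.662%) against at most 0.0643%, but had 2 Cast reads, or 0.0784%, in the second library. Its use on Cast was higher still in clone 8, and in the pool it lay above clones 3, B52 and E9-3, so that this too is not particular to clone 4.

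The study's restriction assay used 7 segments, of which Igkv19-93 is 1. Igkv6-32 had the highest B6 share in clone 4, 80.8% (78.6 to 82.8), above 58.1%, 55.7% and 64.2% in clones 3, B52 and E9-3. Igkv18-36 was at 51.2% in clone 4 (43.7 to 58.6) against 30.4%, 45.3% and 36.9%, and its interval overlapped that of clone B52. Igkv16-104 was at 63.8% (56.8 to 70.2) against 42.9%, 59.0% and 57.4%, and Igkv7-33, with 42 reads, at 61.9% (46.8 to 75.0) against 36.6%, 56.8% and 56.4%, and both overlapped with clones B52 and E9-3. Igkv15-103 was at 36.6% (32.5 to 40.9), between 22.7% in clone 3 and 45.0% in clone B52. Igkv4-91 was at 76.5% on 102 reads, between 46.4% in clone 3 and 100% on 25 reads in clone B52. Of the 7, Igkv6-32 was thus the only segment with a B6 share whose interval lay above those of all 3 clones in this library of clone 4. In the second library, Igkv16-104 was at 97.5% (87.1 to 99.6) with 39 B6 reads and 1 Cast read. Igkv15-103 was at 96.8% there (83.8 to 99.4), with 30 B6 reads and 1 Cast read. Both of these intervals lay above those of all 3 clones, so that the call depended on the library used.

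Segments read on 1 allele only played a small part. The 31 segments without 3 reads on each allele over the 4 libraries, 6 of them with no read at all, held 1.39 points and the other 81 held 13.5. The 13 pseudogenes summed to −0.051 points, a mean over 0.77, −0.80 and −0.12 against clones 3, B52 and E9-3, with 12.1% of the Cast reads of clone 4 against 7.13%, 3.26% and 4.36% in clones 3, B52 and E9-3. Functional segments alone gave differences of 21.1, 7.68 and 19.5 points to the 3 clones.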

How the data were processed

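RNA of rearranged Igκ was reverse transcribed from Cκ, amplified by ligation-mediated PCR and sequenced, with 1 library per clone. The authors trimmed the reads (Trim Galore), aligned them to a hybrid B6/Cast genome (mm10, bowtie2) and counted them per segment and allele (HTSeq), with versions not given in the sources used here. The deposited values are these raw counts, without normalization. The methods give 2 read lengths and do not say which library had which, and no removal of PCR duplicates is stated. Depth was 34291 to 165679 reads in the 4 libraries, where 3 reads, taken as the floor, are 0.00875% to 0.00181% of a library.

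From the counts, percents of library and allele, B6 shares, Wilson and Newcombe intervals (95%), a segment's part in the difference, and the counts by the rules of 20 points and 2-fold were computed with Python 3.11.15, NumPy 2.4.6 and pandas 2.3.3. A segment's part is its B6 minus its Cast percent of the library in clone 4, less the mean of that over the other clones, divided by 2. No count model was fitted, since no clone has replicates in the table, and edgeR 4.0.16 gave TMM factors only. The rules were tested on simulated counts with counting error only and for well-read segments only. That test does not cover the larger variation between the 2 libraries of clone 4, nor segments with few reads. Coordinates are those of GENCODE M21, signal sequences those of RefSeq on GRCm38.p6, and identities come from local alignments of annotated transcripts (Biopython 1.88). Figures were drawn with matplotlib 3.10.9.

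Named are the 10 segments that add most and the 10 that take most, up to 10 per direction past the 20-point rule, the 3 most read per allele in clone 4 and the 7 of the restriction assay. Others were named after their values were seen. Segments, lists and rules were chosen with earlier results of these data known. The alternatives varied the segments included, the library of clone 4, the clones compared, the read minimum, the size limits, the floor and the scaling. The stretch from Igkv3-1 to Igkv6-15 was added after seeing the data. The nuclear RNA and accessibility experiments were not analysed here.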

Additional observations from a re-analysis of the deposited data

Results flagged for a closer look

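In 4 segments the majority allele of clone 4 was opposite to that of clones 3, B52 and E9-3, with the Wilson intervals of clone 4 on 1 side of 50% and those of the other 3 clones on the other. The difference was not tested, since each clone has 1 library, and the same count for the other clones is not given. These intervals cover counting error only, and the 2 libraries of clone 4 differed by more than that. For Igkv12-46 and Igkv11-125 the interval of clone 4 ends close to 50%. Igkv3-1 was B6 in clone 4, with a B6 share 45.5 points above the mean of the other 3, and Igkv12-46 was B6 by a narrow margin (54.3%, 51.6 to 56.8, 1410 reads), 13.0 points above the mean of 35.3%, 43.5% and 45.1%. Igkv1-135 was Cast in clone 4, with a difference of −33.5 points, and Igkv11-125 was Cast with 43.2% (37.0 to 49.7, 229 reads), a difference of −18.5 points from the mean of 56.6%, 70.5% and 58.0%. The second library of clone 4 lay on the same side of 50% in each, with 81.8% on 11 reads for Igkv3-1, 60.5% for Igkv12-46, 30.9% for Igkv1-135 and 0% on 62 reads for Igkv11-125. Clone 8 also had more B6 reads at Igkv3-1 and more Cast reads at Igkv1-135 and Igkv11-125, so that these sides are not particular to clone 4. At Igkv12-46 clone 8 had more Cast reads, unlike clone 4.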

How the results depend on the processing

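Clone 4 had the highest B6 share of reads under every alternative tried for that share, with differences of 15.1 to 25.5 points to clone 3, 2.40 to 10.9 to clone B52 and 10.4 to 25.1 to clone E9-3. Leaving out Igkv3-7 gave the 2.40 points to clone B52 (1.88 to 2.92), and the second library of clone 4 and scaling to the pool gave the 10.9. With segments or clones left out, the difference to the mean ranged from 12.0 without clone 3 to 19.3 without clone B52.

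The counts of segments depended on the limits. With 10 points, 5 were lower than in clone 3, 34 higher and 14 lower than in clone B52, 13 lower than in clone E9-3, and 25 higher and 5 lower than in all 3. With 30 points, 22 were higher than in clone 3, 10 higher and 2 lower than in clone B52, 16 higher than in clone E9-3, and 4 higher and 1 lower than in all 3. Asking also for an interval that leaves out 0 after division by the variation between the libraries of clone 4 left 25 higher than in clone 3, 11 higher and 2 lower than in clone B52, 2 lower than in clone E9-3, and 9 higher and 1 lower than in all 3. Equal allele totals gave 17 higher and 11 lower than in clone 3, 15 and 15 for clone E9-3, and 9 and 6 for all 3. The second library of clone 4 gave 5 lower than in clone 3 and 4 lower than in all 3.

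For the use of segments, a limit of 1.5-fold gave 12 used less on B6, and 3-fold gave 5 more and 4 less on B6 and 8 more on Cast. Median-of-ratios factors gave 7 more and 11 less on B6, and TMM factors 6 more. The second library gave 10 more and 14 less on B6 and 27 more on Cast. Leaving out 1 clone in turn gave 15 to 25 segments with a higher B6 share and 2 to 3 with a lower one, 20 to 24 used more and 10 to 15 used less on B6, and 17 to 22 more and 12 to 13 less on Cast, with 25 higher shares and 15 used less on B6 without clone B52 and 11 used less without clone E9-3. The part from the use of segments against clone E9-3 turned to −1.27 points with that clone's weights. The causes were not tested, except that a wider or narrower limit takes in more or fewer segments by construction. No paired analysis was possible because each clone has 1 library. Cast values rest on 15886 to 80861 reads, and 3 Cast reads are 0.0164% of the Cast reads of clone 4.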
